A study of Homo sapiens with 2 samples.

Results

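GFI1, GFI1B, the Ikaros family (IKZF1, IKZF2, IKZF3, IKZF4 and IKZF5), ZBTB16, BCL6 and BCL11A are C2H2 zinc finger transcription factors of blood cells. These 10 genes were chosen by name, and each was read by 1 probe set that carried its symbol alone, so all 10 were measured out of 18404 named genes. The samples were 2 arrays of wild-type HL-60, an established human promyelocytic leukaemia line, labelled replicates 1 and 2, with no treatment and no second genotype. RNA of cells grown in DMEM with serum was read on Affymetrix Human Gene 1.0 ST arrays, whose probes lie along the whole transcript. With 1 group there is no comparison between conditions and no p-value, and the number of arrays limits the precision. Nothing in the labels tells if these were separate cultures, and the spread between them may be technical. A bulk signal cannot tell fewer expressing cells from less RNA per cell.

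Zinc finger repressors of this kind bind short DNA motifs through their fingers and silence nearby genes by bringing in histone-modifying complexes. GFI1 and GFI1B carry a short SNAG domain at the N terminus that binds the LSD1-CoREST demethylase complex. In myeloid progenitors GFI1 favours granulocyte over monocyte development, while GFI1B acts mainly in erythroid cells and megakaryocytes. Ikaros family proteins bind DNA with N-terminal fingers, pair with each other through C-terminal fingers, and work with the NuRD complex, chiefly in lymphocytes. ZBTB16, also called PLZF, and BCL6 bind the NCoR and SMRT corepressors through a BTB domain, and that of BCL6 also binds BCOR. BCL11A silences the fetal globin genes in red cell precursors and is needed for B cell development.

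Values are RMA signals on the log2 scale, written for replicate 1 and then replicate 2, with the mean ± SD over the 2 arrays (n = 2). Background was taken as the 95th percentile of 360 olfactory receptor genes, which lay at 2.98 on replicate 1 and 2.88 on replicate 2. A stricter background, the 95th percentile of 116 keratin-associated protein, bitter taste receptor and beta-defensin genes, lay at 5.40 on replicate 1 and 5.22 on replicate 2. A gene was called above a threshold when it exceeded it on both arrays. Over all named genes the SD of the between-array difference was 0.39, or 0.28 per array, which is a better guide to the error of 1 gene than an SD from 2 values. Signals also depend on the probes, so the order of different genes by signal is not an order of transcript abundance.

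All 7 promyelocyte markers measured passed the olfactory threshold and 4 the stricter one, against 55.8% and 17.1% of all named genes. They ran from AZU1 at 3.10 ± 0.13 to the granule proteoglycan gene SRGN at 9.13 ± 0.17 (n = 2). AZU1 passed the olfactory threshold by only 0.03 on replicate 1 and 0.32 on replicate 2. Their median was 7.95 on replicate 1 and 6.47 on replicate 2, and 5 of the 7 were lower on replicate 2, against 52.6% of all named genes. Differences between the arrays past 1 (log2) were those of the granule protease genes CTSG (8.99 and 7.24) and PRTN3 (7.95 and 6.47) and the membrane protein gene MS4A3 (5.98 and 4.88). Of markers of other blood lineages, 3 of 5 for B cells, 2 of 6 for T and NK cells, 2 of 4 for erythroid cells, 3 of 6 for megakaryocytes and 1 of 6 for monocytes were above the olfactory threshold, and 0 were above the stricter one. The B cell, erythroid and megakaryocyte shares were thus near that of all named genes by the olfactory threshold.

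Of the 10 zinc finger genes, 9 were above the olfactory threshold on both arrays, against 55.8% of all named genes. By the stricter threshold the count was 0, against 17.1% of all named genes. Their median signal was 3.57, beside 3.33 over all named genes. They ran from 2.48 to 5.56, a range that held 10164 of the 18404 named genes. Among zinc finger genes picked by symbol, 33 of 43 ZBTB genes (median 3.78) and 282 of 494 ZNF genes (median 3.48) were above the olfactory threshold. The stricter one was passed by 4 of these ZBTB genes (9.30%) and 34 of these ZNF genes (6.88%). A low share by the stricter threshold was thus not particular to the 10 genes. A higher limit was the olfactory receptors' 99th percentile, 3.60 on replicate 1 and 3.76 on replicate 2. GFI1, IKZF1, IKZF5 and BCL11A, 4 of the 10 genes, exceeded it on both arrays. Of all named genes 40.0% did so, as did 22 of the 43 ZBTB genes and 185 of the 494 ZNF genes. The share of the 10 genes by this limit was thus no higher than that of all named genes.

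**Figure D1:**
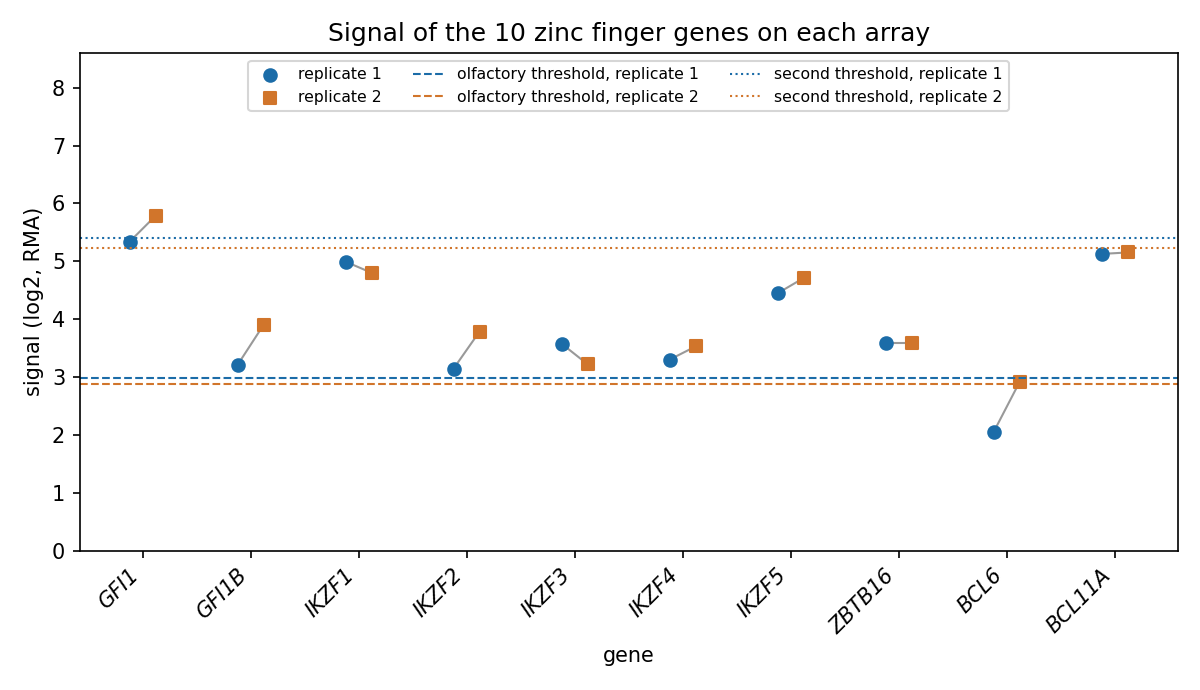
Signal (log2, RMA) of the 10 zinc finger genes on replicate 1 (circles) and replicate 2 (squares), with each array's olfactory (dashed) and second, stricter (dotted) threshold as lines in that array's colour. All genes except BCL6 lie above the dashed lines on both arrays, and GFI1 on replicate 2 is the only point above its dotted line.

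GFI1 had a signal of 5.34 on replicate 1 and 5.79 on replicate 2 (5.56 ± 0.32). It was 2.36 and 2.91 above the olfactory threshold of those arrays. Against the stricter threshold it fell short by a margin of -0.07 on replicate 1 and was 0.56 above it on replicate 2, the only one of the 10 genes to pass on either array. Its paralogue GFI1B read 3.21 and 3.90 (3.56 ± 0.49), only 0.23 above the olfactory threshold on replicate 1 and 1.02 above it on replicate 2. The GFI1B call thus rested on a narrow margin on 1 array, smaller than the SD of 0.28 per array.

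The DNA of the promoters differed between these paralogues in CpG dinucleotides, the sites at which DNMT1 copies methylation, which is the subject of the series. Methylation itself was not measured. RefSeq (GRCh38.p14) windows of 300 bases around annotated starts, 250 before and 50 after, were found for 8 of the 10 genes, 22 windows in all. The 3 windows of GFI1 held 20 to 27 CpGs and the 2 of GFI1B held 6 and 9, beside a median of 14 over 35116 windows. The window richest in CpG of each paralogue is shown to make this contrast visible, 5′ to 3′ on the gene's strand, with every CG in capitals. That of GFI1 is chr1:92486876-92487175, minus strand, with 27 CpGs. That of GFI1B is chr9:132978444-132978743, plus strand, with 9 CpGs.
GFI1: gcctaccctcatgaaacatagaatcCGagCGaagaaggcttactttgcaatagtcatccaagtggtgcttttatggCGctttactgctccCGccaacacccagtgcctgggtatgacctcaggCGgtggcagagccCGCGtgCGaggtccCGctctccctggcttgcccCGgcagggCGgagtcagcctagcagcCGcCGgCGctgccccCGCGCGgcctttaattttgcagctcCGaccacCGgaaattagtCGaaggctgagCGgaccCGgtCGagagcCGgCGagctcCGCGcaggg
GFI1B: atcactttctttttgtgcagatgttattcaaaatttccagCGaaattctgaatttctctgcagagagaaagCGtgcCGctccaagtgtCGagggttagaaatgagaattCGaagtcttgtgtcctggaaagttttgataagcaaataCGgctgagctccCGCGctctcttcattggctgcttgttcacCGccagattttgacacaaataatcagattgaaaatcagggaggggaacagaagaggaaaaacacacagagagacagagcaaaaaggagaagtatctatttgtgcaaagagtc
Which start the cells used cannot be told from the arrays. The core of the site that GFI1 and GFI1B bind, AATC, read on both strands, occurred 1 time in each GFI1 window and 2 and 4 times in those of GFI1B, but 69.0% of all windows held it.

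Genes listed for the LSD1-CoREST complex, through which GFI1 and GFI1B act, were measured in 9 cases. The 9 include the histone methyltransferase gene EHMT2 (5.19 and 4.73), which is not a core subunit. The olfactory threshold was passed by 8 and the stricter one by 5, against 55.8% and 17.1% of all named genes, and the median was 6.11. The histone deacetylase genes HDAC2 (8.43 and 8.96, mean 8.70 ± 0.37) and HDAC1 (8.50 and 8.13, mean 8.31 ± 0.26) had the highest signals, and KDM1A, which encodes LSD1, read 7.98 and 7.67. Of the CoREST scaffold genes, RCOR1 read 5.78 and 6.43 and RCOR3 5.28 and 5.66, while RCOR2 was lowest and not above background (2.90 and 2.61, mean 2.75 ± 0.21). PHF21A, which encodes the BHC80 subunit, was the only gene of any of the 10 partner and target lists to differ by more than 1 between the arrays, with 5.96 and 7.26, and 1.96% of all named genes did so.

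Genes described as repressed by GFI1 or GFI1B were above the olfactory threshold in 7 of 14 cases, against 55.8% of all named genes, and their median was 2.90. The highest were EGR1 (5.76 and 6.62, mean 6.19 ± 0.61), a monocyte-associated immediate early factor, and the apoptosis gene BAX (4.85 and 5.19, mean 5.02 ± 0.24). The neutrophil elastase gene ELANE, a GFI1 target in granulocyte precursors, read 4.47 and 4.71. The macrophage growth factor gene CSF1 (2.58 on both arrays) and its receptor gene CSF1R (2.38 and 2.75) were not above background, nor was the cell cycle inhibitor gene CDKN1A (2.03 and 2.40). The lowest was MEIS1, a homeobox gene of stem cells (2.14 and 1.76, mean 1.95 ± 0.27).

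In the Ikaros family, IKZF1 and IKZF5 were apart from the other members. IKZF1, which encodes Ikaros, read 4.99 and 4.80 (4.90 ± 0.14), and IKZF5, which encodes Pegasus, read 4.45 and 4.71 (4.58 ± 0.19). Both exceeded the olfactory threshold by at least 1.47 on each array. The 3 other family genes lay close to background. IKZF2, the Helios gene known from T cells, read 3.15 and 3.79 (3.47 ± 0.45), only 0.17 above the olfactory threshold on replicate 1 and 0.91 above it on replicate 2. IKZF3, the Aiolos gene of B cells, read 3.58 and 3.22 (3.40 ± 0.25), with margins of 0.59 and 0.34. IKZF4, the Eos gene known from regulatory T cells, read 3.30 and 3.53 (3.42 ± 0.16), with margins of 0.32 and 0.65. None of these 3 reached the 99th percentile of the olfactory receptors on both arrays, and IKZF2 did so on replicate 2 only. A probe set reads many splice forms together, so the Ikaros isoforms could not be told apart.

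All 11 NuRD genes, partners of the Ikaros family, were above the olfactory threshold, and 8 were above the stricter one (median 6.50), against 55.8% and 17.1% of all named genes. The remodeller gene CHD4 was highest at 7.75 and 8.27 (8.01 ± 0.37), followed by the histone-binding RBBP4 at 7.19 and 7.72 (7.45 ± 0.38). MTA3 was lowest at 3.50 and 3.99 (3.75 ± 0.35). The cereblon ubiquitin ligase, to which drugs of the lenalidomide type direct Ikaros and Aiolos for degradation, had all 5 of its genes over the olfactory threshold and 4 over the stricter one (median 6.63), against the same shares of all named genes. The drug receptor gene CRBN read 7.24 and 7.15 (7.19 ± 0.06) and the ring finger gene RBX1 7.05 and 6.76 (6.91 ± 0.21). CUL4B was lowest at 5.04 and 4.85 (4.95 ± 0.13), and all 5 genes were lower on replicate 2, against 52.6% of all named genes, with a median difference of -0.29.

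Genes described as controlled by Ikaros proteins in lymphoid cells were above the olfactory threshold in 4 of 9 cases (median 2.82), against 55.8% of all named genes. The 4 were IGLL1, CCND3, SYK and CD79B, the last with margins of only 0.35 and 0.31. The surrogate light chain gene IGLL1 was highest at 6.70 and 5.84 (6.27 ± 0.61), and its partner VPREB1 was not above background at 1.59 and 1.69. The cyclin gene CCND3 read 5.05 and 5.13 (5.09 ± 0.06). The recombinase genes RAG1 (2.02 and 1.73) and RAG2 (1.26 and 1.32, the lowest at 1.29 ± 0.04) and the terminal transferase gene DNTT (2.00 and 1.64) were not above background.

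ZBTB16 read 3.59 on both arrays, 0.61 and 0.71 above the olfactory threshold. The 2 deposited values were exactly equal, as they were for 962 named genes (5.23%), so its SD of 0 does not show a smaller error. BCL6 had the lowest signal of the 10 genes, at 2.05 on replicate 1 and 2.91 on replicate 2 (2.48 ± 0.61). It was under the olfactory threshold by a margin of -0.93 on replicate 1 and over it by 0.04 on replicate 2, so it was the 1 gene not called above background. In B cells BCL6 is known to repress its own gene. Its promoter window at chr3:187745419-187745718 (minus strand, GRCh38.p14) is shown because it held the letters TTCCTNGAA of the BCL6 motif, searched on both strands, which only 1.56% of all windows did. The match, in capitals, is on the opposite strand within the first 50 bases after the annotated start. A match of letters is not evidence of binding.
BCL6: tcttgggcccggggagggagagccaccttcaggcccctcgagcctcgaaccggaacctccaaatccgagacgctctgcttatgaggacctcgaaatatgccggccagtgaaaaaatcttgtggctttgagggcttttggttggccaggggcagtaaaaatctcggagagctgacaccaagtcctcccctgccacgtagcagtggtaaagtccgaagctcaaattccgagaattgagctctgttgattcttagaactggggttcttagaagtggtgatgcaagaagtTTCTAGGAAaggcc

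Of 13 measured corepressor genes of the BTB factors, 12 passed the olfactory threshold and 5 the stricter one (median 4.75), against 55.8% and 17.1% of all named genes. The highest were the scaffold gene SIN3A (6.95 and 7.04) and TBL1XR1, a subunit of the NCoR complex (6.16 and 6.59, mean 6.37 ± 0.31). BCOR, a direct partner of the BCL6 BTB domain, read 5.50 and 6.04, and HDAC3 6.31 and 5.94. The lowest was SIN3B, which passed the olfactory threshold on replicate 2 only (2.92 and 3.56, mean 3.24 ± 0.46).

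Genes described as BCL6 targets in B cells were above the olfactory threshold in 5 of 10 cases (median 3.98), a share near the 55.8% of all named genes. The checkpoint kinase gene CHEK1 (6.62 and 6.52, mean 6.57 ± 0.07) and the cyclin gene CCND2 (6.06 and 6.32, mean 6.19 ± 0.18) were highest, and the survival gene BCL2 read 5.80 and 5.82. The lowest was the lymphocyte activation gene CD69 (1.89 and 2.51, mean 2.20 ± 0.44). PRDM1, the plasma cell factor that BCL6 represses in germinal centres, was not above background (2.58 and 2.50), nor was IRF4 (2.32 and 2.31). Of 4 genes described as repressed by ZBTB16, 3 were above the olfactory threshold (median 5.47), against that same share. MYC, present in extra copies in this line, gave 8.63 and 8.21 (8.42 ± 0.29), the cyclin gene CCNA2 6.41 and 6.38 (6.39 ± 0.02), and the interleukin-3 receptor gene IL3RA 2.19 and 1.98 (2.08 ± 0.15), which was not above background.

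BCL11A gave 5.13 and 5.15 (5.14 ± 0.02), 2.15 and 2.28 above the olfactory threshold, and missed the stricter one by margins of -0.28 on replicate 1 and -0.07 on replicate 2. Its T cell paralogue BCL11B read 3.12 and 3.27 (3.20 ± 0.10), above the olfactory threshold only. Of the beta-like globin genes, 3 were measured and 1 was above the olfactory threshold, against 55.8% of all named genes. HBD read 3.18 and 3.33 (3.26 ± 0.11), the embryonic gene HBE1 2.24 and 2.94 (2.59 ± 0.50), passing on replicate 2 only, and the adult gene HBB 2.27 and 2.16 (2.22 ± 0.08). Globin genes resemble each other in sequence, which leaves their signals uncertain wherever a probe matches several of them.

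Other zinc finger repressors of related kinds were above the olfactory threshold in 8 of 11 cases, and 1 was above the stricter one (median 3.43), against 55.8% and 17.1% of all named genes. ZBTB33, which encodes Kaiso, a factor known to bind methylated DNA, was highest at 5.50 and 5.27 (5.39 ± 0.16), followed by ZBTB7A at 4.59 and 4.45 (4.52 ± 0.10). PRDM1 was the lowest of these at 2.54 ± 0.06, and BCL6B, the BCL6 paralogue, was also not above background at 2.70 and 2.73.

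**Figure D2:**
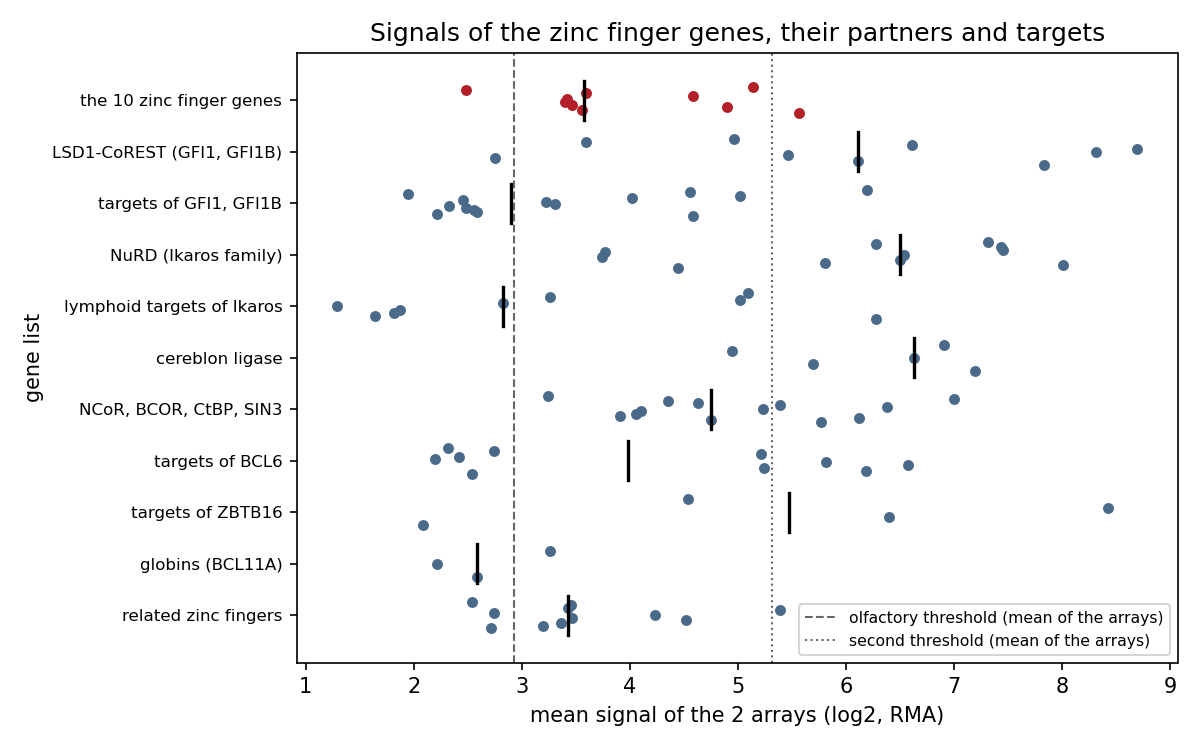
Mean signal of the 2 arrays (log2, RMA) for the 10 zinc finger genes (top row) and for the genes of each partner, target or related list, with 1 point per gene and a black bar at the list's median. The medians are 3.57 for the zinc finger genes, 4.75 to 6.63 for the corepressor and ligase lists, 2.59 to 2.90 for the lymphoid, GFI1 target and globin lists, 3.98 for the BCL6 targets, 5.47 for the ZBTB16 targets and 3.43 for the related zinc fingers.

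Among the 8 zinc finger genes with promoter windows, signal went with CpG content only as a split at a limit of 20 CpGs. IKZF3 and ZBTB16 had no window and did not pass the 99th percentile of the olfactory receptors on either array. A gene was placed by its window with most CpGs. Genes with more windows, such as BCL11A with 5, thus had more chances to reach a given count. GFI1, IKZF1, IKZF5 and BCL11A, the genes above the 99th percentile of the olfactory receptors on both arrays, each had a window with at least 20 CpGs, and their mean signals were 4.58 to 5.56. The richest window was 1 of the 3 of IKZF1, with 35 CpGs, while the other two held 0 and 3. GFI1B, IKZF2, IKZF4 and BCL6 had at most 19, and their mean signals were 2.48 to 3.56. Within each group signal did not follow the count. IKZF1 with 35 CpGs had a lower mean signal (4.90) than GFI1 with 27 (5.56). GFI1B with 9 had a higher one (3.56) than IKZF4 with 19 (3.42) and BCL6 with 12 (2.48). The limit of 20 was chosen after the values were seen. Over all 14230 named genes with a window, 54.9% of the 9046 with at least 20 CpGs passed the 99th percentile on both arrays and 22.0% of the 5184 others did, with median signals of 4.08 for the CpG-rich genes and 2.59 for the others. With 4 genes on each side, nothing particular to the zinc finger genes can be read from this.

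**Figure D3:**
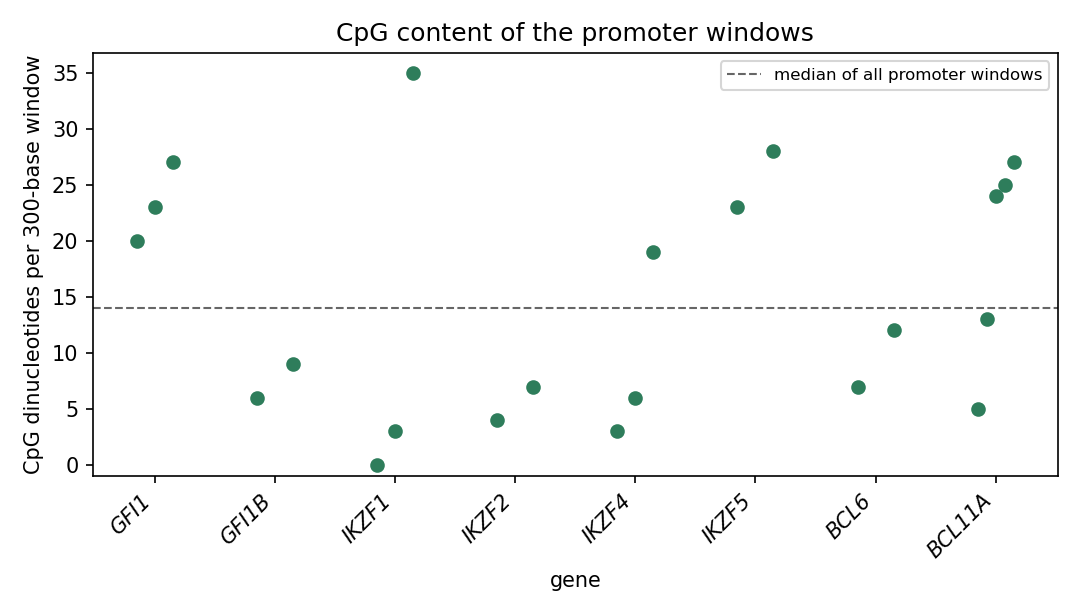
Number of CpG dinucleotides in each 300-base promoter window of the 8 zinc finger genes with windows, 1 point per annotated start, and the median of all windows (14) as a dashed line. All windows of GFI1 and IKZF5 lie above the line, all those of GFI1B, IKZF2 and BCL6 lie under it, and IKZF1, IKZF4 and BCL11A have both kinds.

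Differences between the arrays are given as replicate 2 minus replicate 1 (log2). None of the 10 genes (0) moved past 1 in either direction, against 1.96% of all named genes. GFI1B differed by 0.69 (1.61-fold), IKZF2 by 0.64 (1.56-fold) and GFI1 by 0.45 (1.36-fold). The folds of GFI1B and IKZF2 are uncertain, since on replicate 1 they were only 0.23 and 0.17 above the olfactory threshold. Both margins were smaller than the SD of 0.28 per array. The values of BCL6 differed by 0.86, but that of replicate 1 was under background and that of replicate 2 barely over it, so no fold is given. The 3 genes past 0.5 were thus all higher on replicate 2 and had low signals on replicate 1. Among all named genes 17.5% differed by more than 0.5, and among the 10164 genes with mean signals in the range of these 10 genes 19.4% did. IKZF3 (-0.36) and IKZF1 (-0.19) were lower on replicate 2, IKZF5 (0.26), IKZF4 (0.23) and BCL11A (0.03) were higher there, and ZBTB16 was equal. These 6 differences were smaller than the SD of 0.39 over all genes. In all, 7 of the 10 were higher on replicate 2, against 42.1% of all named genes, and the median difference was 0.25, beside -0.04 over all named genes. The difference has 1 array on each side and no replicate check. Other gene sets moved in both directions. The median difference was 0.37 for the NuRD genes, 0.36 for the BTB corepressor genes, 0.08 for the ZNF genes and 0 for the ZBTB genes. It was -0.29 for the cereblon ligase genes, all 5 lower on replicate 2, and -0.73 for the promyelocyte markers. For the LSD1-CoREST genes it was also -0.29, but 4 were higher and 5 lower on replicate 2. That value is the difference of RCOR2, which was not above background. The median signal of the LSD1-CoREST genes was 5.78 on replicate 1 and 6.43 on replicate 2. That of the NuRD genes was 6.48 and 6.47, with 7 genes higher and 4 lower on replicate 2. Whether the lower signals of the promyelocyte markers have a part in the differences of the zinc finger genes was not tested.

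**Figure D4:**
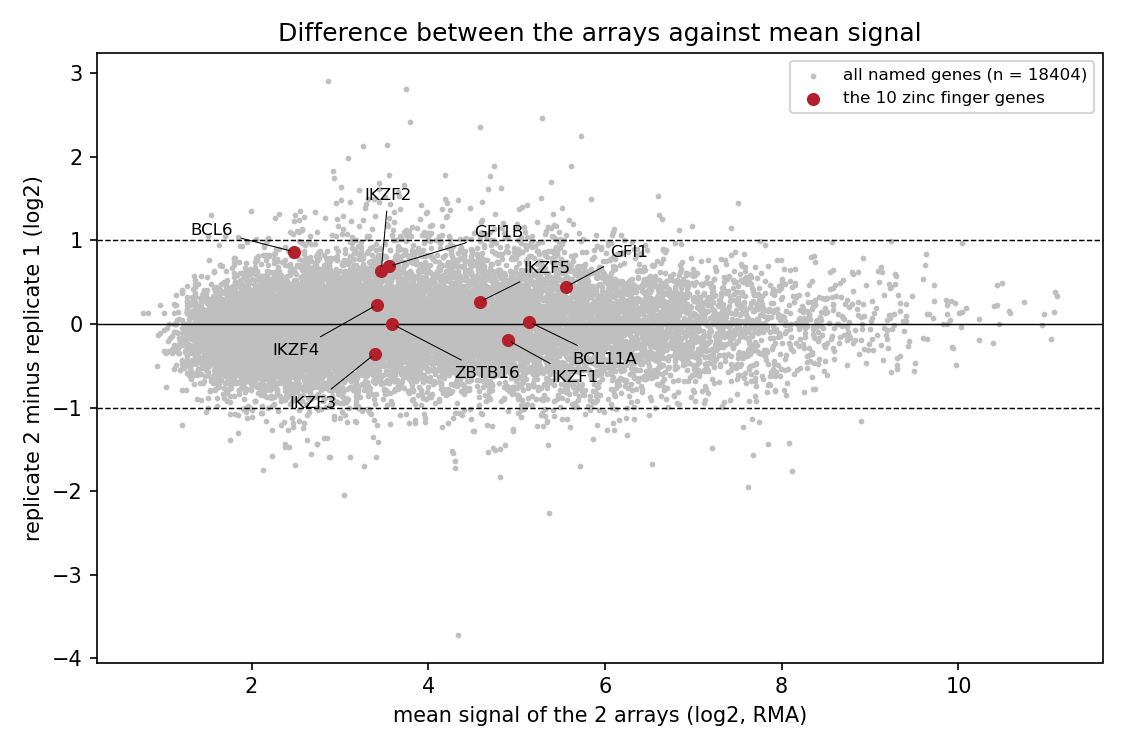
Difference between the arrays (replicate 2 minus replicate 1, log2) against the mean signal of the 2 arrays (log2, RMA) for all 18404 named genes (grey) and the 10 zinc finger genes (red), with dashed lines at a difference of 1 in either direction. All 10 lie between the dashed lines, with BCL6 (under background on replicate 1), GFI1B and IKZF2 the furthest from 0.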

How the data were processed

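The deposited table holds log2 signals per probe set that the authors made with RMA, per the submitters' processing notes. The software and version, the log base and the arrays it was run over were not given in the sources used here. Base 2, RMA's own, was taken, since values reach 12.9. Of 32321 probe sets, 19158 carried 1 symbol in the platform annotation; symbols were updated through Entrez IDs (19128 matched RefSeq, GRCh38.p14), giving 18404 genes, with probe sets of a gene averaged. No scanner files or detection p-values were used. RMA equalises distributions, so a global change in RNA content cannot be seen. The members and lists were chosen with earlier results of these data known. Named were all 10 members, the 2 highest and the lowest gene of each list, and list or marker genes differing by more than 1 between arrays; other named genes were chosen after their values were seen. Listed genes without a probe set of their own, and protein sequences, are not reported here. Threshold and difference calls were also run on simulated data with the same normal spread for every gene. The deposited values, with their many repeated differences, depart from that setting, so the simulation does not give the error of the calls made here. Alternatives were quantile normalization, loess, the highest probe set per gene, other thresholds, each array alone and a filter on dim genes. Python 3.11.15, numpy 2.4.6, pandas 2.3.3, statsmodels 0.14.6 and matplotlib 3.10.9 were used.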

Additional observations from a re-analysis of the deposited data

How the results depend on the processing

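No paired analysis was possible because the study has only 1 group. Of 95 recomputed counts and medians, 14 moved. A count moved when it changed by over 1.5 times or to or from 0, and the median signal when it changed by more than the replicate spread. For the median difference the limit was the between-array SD over all genes, divided by the square root of 10. The 15 values from the highest probe set per gene could change little, because each of the 10 zinc finger genes had 1 probe set. With the 99th percentile in place of the 95th, the zinc finger genes above background were 4 in place of 9, the related zinc fingers 3 in place of 8 and the globin genes 0 in place of 1. With the stricter background set, the counts were 0 for the zinc finger genes and the globins, 5 for the LSD1-CoREST genes, 5 for the BTB corepressors, 1 for the related zinc fingers, 1 for the GFI1 targets, 3 for the BCL6 targets and 1 for the Ikaros targets, since that threshold is higher. On each array alone, the zinc finger genes above the stricter threshold numbered 0 to 1 (GFI1 on replicate 2), those above the olfactory threshold 9 to 10, the globin genes 1 to 2, and the median signal was 3.58 to 3.84. Quantile normalization and loess moved the median difference to 0.23 and 0.25 and the zinc finger genes higher on replicate 2 to 6 and 8 in place of 7, because ZBTB16 and BCL11A lie near 0. The background correction, which needs scanner files, was not run. Signals near the olfactory threshold limit what can be said of GFI1B, IKZF2 and BCL6.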

Other observations

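Of the 10 zinc finger genes, GFI1B, IKZF3 and IKZF5 each shared their difference between the arrays, equal to 6 decimals, with 1 other gene, and ZBTB16 shared its difference of 0 with 961. Over all named genes 8000 (43.5%) shared their difference with another gene, 7038 of them with a value other than 0. The most frequent such value, -0.09, was found in 98 genes.

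The letters TGGGAA of the core bound by Ikaros proteins, searched on both strands, occurred in 4 of the 22 promoter windows of the zinc finger genes, against 24.0% of all windows. These were 1 window of GFI1, 1 of IKZF1 and 2 of BCL11A.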
